A study of Caenorhabditis elegans with 15 samples.

Results

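Wild-type (WT) Caenorhabditis elegans larvae of the first stage (L1s), starved from hatching, were sequenced in 2 separate experiments, and the WT libraries of the later experiment (WT batch 2) are set here against those of the earlier one (WT batch 1). Members were chosen by label: every library named WT, 3 in WT batch 2 and 3 in WT batch 1, which makes 6 of the 15 libraries of the series. The study examined how mutations of eff-1, the gene of the protein that fuses most epidermal cells, alter the transcriptome. The other 9 libraries are eff-1 mutants (P37Stop in the later experiment, S441L and P183L in the earlier one) and are used only for context. The question taken up here is which gene families, tissues, stages and stress programs differed between WT L1 cultures and which stayed constant.

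WT batch 2 and WT batch 1 have the same labels apart from the batch: genotype WT, whole worm, polyA RNA. The methods name N2, the laboratory wild type, for the WT animals of the earlier experiment. In both experiments gravid adults were bleached, the embryos hatched and arrested without food in M9 buffer, RNA was taken from whole animals with Trizol, and TruSeq mRNA libraries were made. Replicates of a batch were grown in parallel from individual plates, so the p-values measure the spread between plates of 1 experiment. Each WT batch is 1 experiment, and the cultures, the strain stock and the library preparation of an experiment cannot be told apart. In RNA of whole animals, a smaller number of cells of one type and less RNA in each such cell cannot be told apart either.

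The transcripts of 2 genes separate the WT batches more than their labels do, and both were set aside. unc-119, a neuronal gene often used as a transgene rescue marker, had 729, 816 and 763 CPM in WT batch 2, against 24.4, 23.7 and 23.4 CPM in WT batch 1. ajm-1, an apical junction gene, had 1881, 1974 and 1905 CPM in WT batch 2, against 622, 641 and 649 CPM in WT batch 1. By total counts, unc-119 averaged 744.9 CPM in WT batch 2 and 1108 CPM in P37Stop of the same experiment, against a mean of 24.6 CPM for WT batch 1; the S441L mean was 25.7 CPM and the P183L mean 63.8 CPM. Both genes are carried by the kuIs46 transgene. The methods say that the P37Stop allele was made in animals with kuIs46. The paper's results name N2 as the control for P37Stop, while its methods write only WT for the later experiment. By total counts, ajm-1 averaged 1858 CPM in WT batch 2, 2672 in P37Stop and 658.8 in WT batch 1. It averaged 4275 CPM in S441L and 1246 in P183L, whose strains carry ajm-1 on another transgene, jcIs1. The methods also name MH1384, a strain with kuIs46, as the WT for AJM-1::GFP images. Whether the WT batch 2 animals carried kuIs46 is not stated, so a difference of strain and one of experiment cannot be told apart. rol-6, unc-29 and his-58, carried by other transgenes of the study's strains, were left out of all lists as well.

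Total counts were 40432436 to 47820216 per library in WT batch 2 and 35858225 to 44870027 in WT batch 1. Ribosomal RNA took 0.524 to 1.24% of the counts in WT batch 2 and 0.581 to 1.01% in WT batch 1. Genes with at least 1 count numbered 17059 to 17717 in WT batch 2 and 18389 to 18517 in WT batch 1. Ribosomal protein genes took 13.4 to 14.2% of the counts in WT batch 2 and 11 to 11.5% in WT batch 1. The distances between libraries, on the log2 CPM scale (CPM, counts scaled to a common normalized library size), were 79.1 to 86 within WT batch 2, 124.5 to 138.8 between the batches and 51.2 to 57.1 within WT batch 1, so the batches separated and WT batch 2 was the more variable one. The biological coefficient of variation was 0.181 in WT batch 2 and 0.0881 in WT batch 1. Even the closest pair of libraries differed by more than counting error (chi-square over its degrees of freedom, 7.74 to 290 over all pairs).

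As background, a C. elegans larva that hatches without food halts before any postembryonic cell division, a state called L1 arrest. Insulin-like signaling controls entry into it, and the larva lives on stored lipid, glycogen and trehalose. The embryo is covered first by a temporary extracellular sheath and then by the L1 cuticle, whose collagens and matrix proteins are made in pulses before each molt. Transcripts of the mitochondrial genome encode core subunits of the respiratory complexes and are made apart from the nuclear genes.

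Of 15408 genes tested, 2864 (18.6%) were higher and 2200 (14.3%) were lower in WT batch 2 than in WT batch 1, by edgeR's quasi-likelihood test at an adjusted p of 0.05 and a log2 fold change of 0.5. Another 4721 genes (30.6%) are called held here, because the 95% interval of their log2 fold change lay wholly between -0.5 and 0.5. The remaining 5623 genes (36.5%) were neither. A held gene can still differ between the batches within this range, as rps-23 did (0.33, with no overlap between the batches). The median log2 fold change was 1.14 over the genes called higher, -0.94 over those called lower and 0.00 over all genes. Changes of more than 1 on the log2 scale numbered 1621 among the genes called higher and 1004 among those called lower. Of all called genes, 98.8% had no overlap between the libraries of the batches. Separation of the groups in a named called gene therefore adds little to its call. The balance of directions depended on the scaling: with total counts in place of TMM, the trimmed mean normalization used here, 2461 genes were higher and 2744 lower, and the median over all genes moved to -0.09. The gene lists below hold named members of a tissue, pathway or family. Each count is to be read against 18.6% higher, 14.3% lower and 30.6% held. The share held also depends on abundance, because a gene with few counts has a wide interval. For example, 32 of 33 proteasome genes averaged at least 10 CPM in both batches, against 11 of 297 chemoreceptor genes and 0 of 73 F-box B genes. A low share held in a list of scarce transcripts therefore does not show that they varied.

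**Figure D1:**
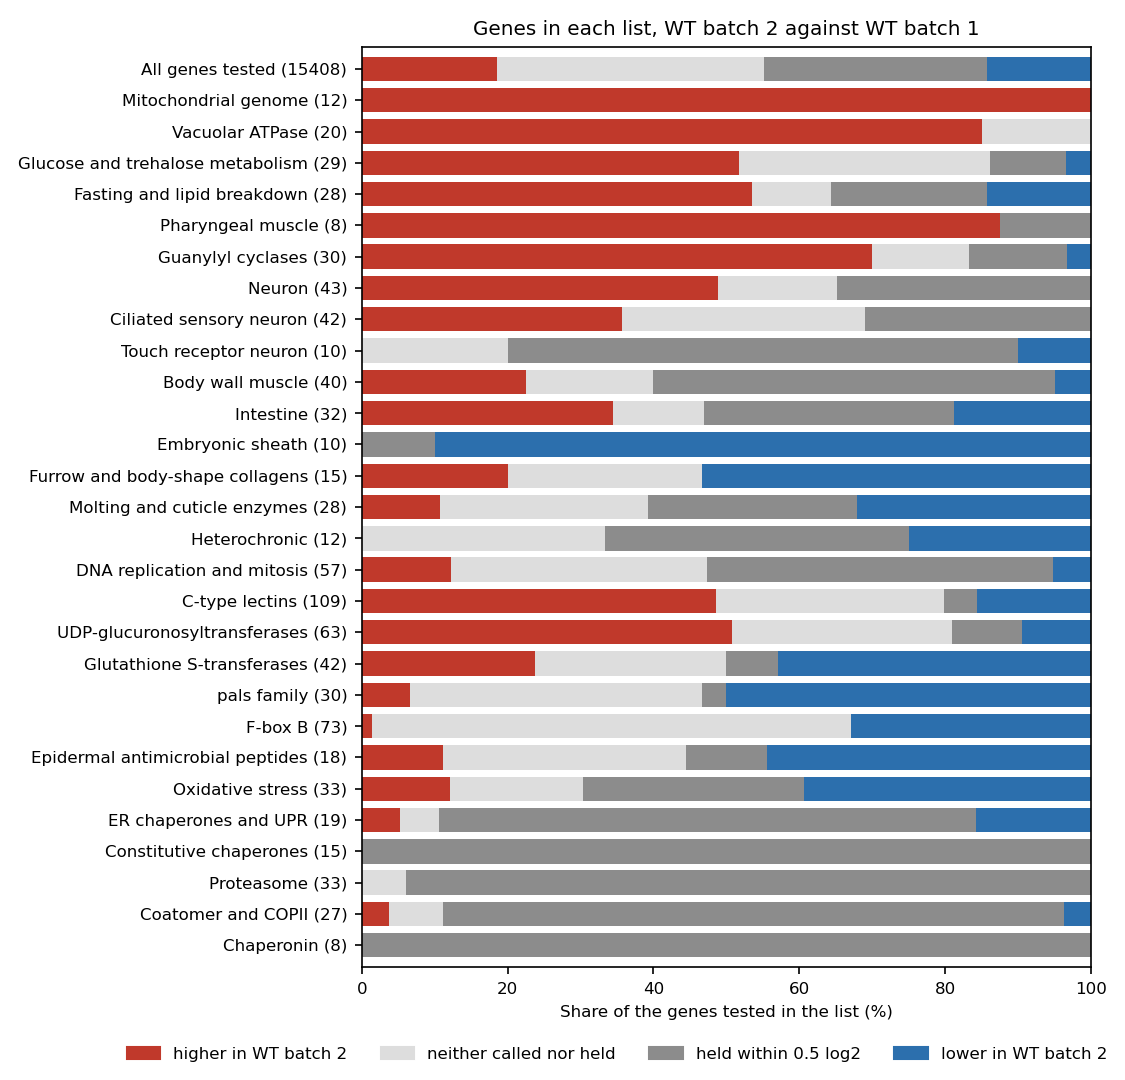
Share of the genes tested in each list (horizontal axis, %) that were higher in WT batch 2 (red), neither called nor held (light grey), held within 0.5 on the log2 scale (dark grey) or lower in WT batch 2 (blue), against WT batch 1; the number tested is in parentheses. All 12 protein-coding mitochondrial genes were higher and 9 of 10 sheath genes were lower, while all 15 constitutive chaperones were held.

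Mitochondrial transcripts were higher in WT batch 2. The mitochondrial genome took 2.08, 1.70 and 1.75% of all counts in WT batch 2, against 0.464, 0.278 and 0.415% in WT batch 1. All 12 of its protein-coding genes and both of its ribosomal RNAs rose, and the median log2 fold change of the 12 was 2.31. ND3, a subunit of complex I (NADH dehydrogenase), had 230.0, 207 and 186 CPM in WT batch 2, against 3.61, 5.58 and 4.72 CPM in WT batch 1 (log2 fold change 5.49 ± 0.14). ND2, of the same complex, had 319, 252 and 256 CPM in WT batch 2, against 4.10, 13.7 and 3.38 CPM in WT batch 1. No library of WT batch 2 overlapped with WT batch 1 in either gene.

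The complex I genes spanned a wide range of log2 fold changes, with ND4 at 3.90, ND5 at 2.2 and ND1 at 0.70. ND1 had 692, 519.8 and 542 CPM in WT batch 2, against 344, 406 and 333 CPM in WT batch 1. COX1, the catalytic subunit of cytochrome oxidase, had 6356, 4778 and 5503 CPM in WT batch 2, against 1317, 791 and 1244 CPM in WT batch 1 (log2 fold change 2.31 ± 0.17). ATP6, a subunit of ATP synthase, had 3170.0, 2359 and 2240.0 CPM in WT batch 2, against 220.2, 104.4 and 226 CPM in WT batch 1 (log2 fold change 3.82 ± 0.26). Replicate 2 was the lowest library of WT batch 1 in COX1, ATP6, ND4, CYTB and COX2, yet it lay below every WT batch 2 library in each of them. ND4L, with at most 2.53 CPM in any WT library, was the least resolved (1.34 ± 0.47), and it was not called without replicate 2 of WT batch 2 (1.14), nor without replicate 1 (0.95) or replicate 3 (1.1) of WT batch 1. In the P37Stop libraries of the later experiment the mitochondrial share was 1.41 to 2.11%, and in S441L and P183L of the earlier one 0.564 to 0.771% and 0.110 to 0.177%.

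**Figure D2:**
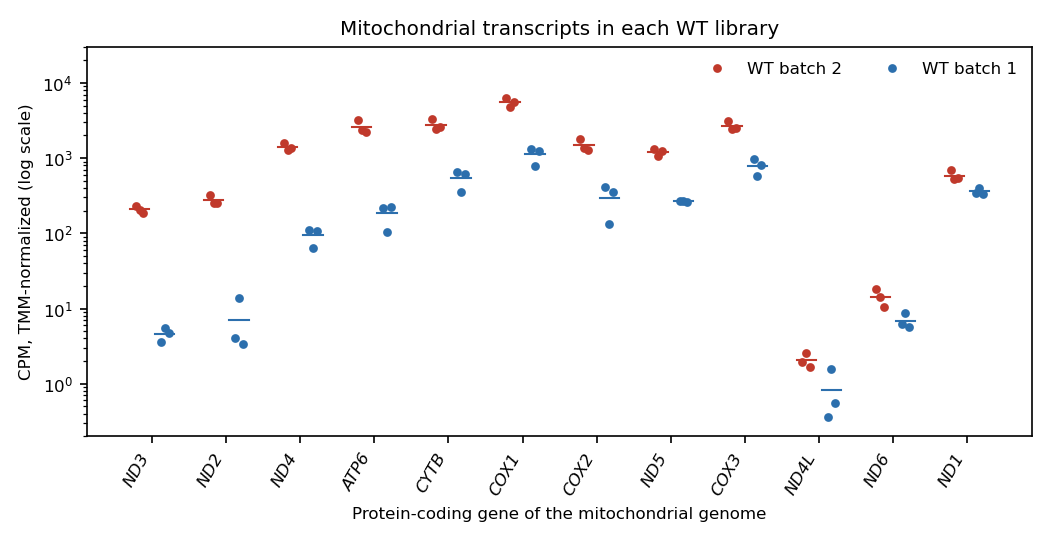
Transcript level of the 12 protein-coding mitochondrial genes (horizontal axis, ordered by fold change) in CPM after TMM normalization (vertical axis, log scale) in WT batch 2 (red) and WT batch 1 (blue). Each point is 1 of 3 libraries and each line a mean; the groups differ most in ND3 and least in ND1.

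Nuclear genes of the same organelle were described in the same way. Of 43 nuclear respiratory chain genes, 17 rose, 1 fell and 13 were held, with a median of 0.39. atp-1 (0.87) and atp-2 (0.59), the alpha and beta subunits of ATP synthase, were among those that rose, and cox-14 was the one that fell (-0.70). With total counts, 11 of the 43 were higher. The mitochondrial chaperones were split: hsp-60, the mitochondrial chaperonin, had 142, 107 and 130.5 CPM in WT batch 2, against 31, 40.0 and 35.9 CPM in WT batch 1 (log2 fold change 1.83 ± 0.11), while hsp-6, the mitochondrial HSP70, was held at 522, 443 and 489 CPM in WT batch 2, against 453, 491 and 458 CPM in WT batch 1. The protease gene spg-7 (1.0) and the transporter gene haf-1 (0.67) also rose, and atfs-1, the transcription factor of the mitochondrial unfolded protein response, was held (0.33). Of 70 mitochondrial ribosomal protein genes, 19 rose, 4 fell and 26 were held.

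In both lists of fuel metabolism more genes rose than fell. In the fasting and lipid breakdown list, which also holds desaturases and lipases, 15 of 28 rose, 4 fell and 6 were held (median 0.54), and 13 rose without replicate 1 of WT batch 2 or with upper quartile scaling. cpt-5, one of the carnitine palmitoyltransferases that move fatty acids into mitochondria, had 70.2, 44.7 and 68.8 CPM in WT batch 2, against 8.75, 7.64 and 7.80 CPM in WT batch 1 (log2 fold change 2.92 ± 0.16). acs-2, an acyl-CoA synthetase known for its induction by fasting, had 15.1, 14.2 and 15.4 CPM in WT batch 2, against 2.45, 3.19 and 2.26 CPM in WT batch 1 (log2 fold change 2.51 ± 0.15). The groups were separate in both genes.

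Others of the list behaved alike in direction: the desaturase genes fat-7 (3.95), fat-5 (1.92) and fat-6 (1.36), the beta-oxidation gene ech-1.1 (2.89), cpt-1 (1.1) and mxl-3, a repressor of lysosomal lipase genes (2.42), all rose. The lysosomal lipase genes lipl-2, lipl-5 and lipl-3 fell, with log2 fold changes of -0.75 for lipl-2, -0.79 for lipl-5 and -0.95 for lipl-3. The list thus mixes genes of different roles, and its count does not measure a single fasting program. The regulators nhr-49 (-0.09) and hlh-30 (0.20) and the fatty acid synthase fasn-1 (-0.32) were held. In the list of glyoxylate, gluconeogenesis and trehalose genes 15 of 29 rose, 1 fell and 3 were held; 12 rose without replicate 1 of WT batch 1, 2 fell and 5 were held without replicate 1 of WT batch 2, and 3 fell and 6 were held with total counts. pck-1, a phosphoenolpyruvate carboxykinase, had 993, 862 and 904 CPM in WT batch 2, against 353, 432 and 367 CPM in WT batch 1 (log2 fold change 1.26 ± 0.09). fbp-1, the fructose bisphosphatase (1.04), pyk-2, a pyruvate kinase (1.43), mdh-2, a malate dehydrogenase (1.28), and ldh-1, the lactate dehydrogenase (1.26), rose too. Enzymes of glycolysis such as pyk-2 are part of this list, so its count does not measure gluconeogenesis alone. The aldolase gene aldo-2 fell (-0.82), and the trehalose synthase genes tps-1 (-0.31) and tps-2 (-0.07) were held. The vacuolar ATPase, the proton pump of lysosomes and the excretory canal, had 17 of 20 subunit genes higher and none lower or held, with a median of 0.61; vha-3 (1.19) and vha-4 (0.94), of the membrane part of the pump, and vha-13 (0.88), its catalytic A subunit, were among them. Its count of higher genes was 10 with total counts.

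Among tissues, nearly all markers of pharyngeal muscle were higher in WT batch 2. In this list 7 of 8 rose, none fell and 1 was held, with a median of 2.39 and the same counts in every fit run. myo-2, the pharyngeal myosin heavy chain (chromosome X, 12468061 to 12475348 of WBcel235), had 1310.0, 1072 and 1194 CPM in WT batch 2, against 185, 208 and 199.7 CPM in WT batch 1 (log2 fold change 2.59 ± 0.09; adjusted p = 1.30e-09 by edgeR's quasi-likelihood test). tnc-2, the pharyngeal troponin C, had 177, 146 and 158 CPM in WT batch 2, against 24, 26.8 and 23.8 CPM in WT batch 1 (log2 fold change 2.69 ± 0.09). Every WT batch 2 library was above every WT batch 1 library in both genes.

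The pharyngeal genes myo-1 (2.39), a second myosin heavy chain, tnt-4 (2.4) and tni-4 (2.39), a troponin T and a troponin I, and ceh-22 (1.26), an NK-2 homeobox regulator of pharyngeal muscle, also rose. pha-4, the FoxA gene that specifies the whole organ, was held at 67.5, 69.6 and 66.1 CPM in WT batch 2, against 61.1, 56.2 and 62.9 CPM in WT batch 1. A list of abu, pqn and phat genes, which include pharyngeal cuticle proteins, was mixed. In it 17 of 61 rose, 21 fell and 13 were held, with a median of -0.13. As 46 of the 61 were pqn genes, a class not defined by tissue, the list does not show how the pharyngeal cuticle behaved. By total counts, myo-2 averaged 1151 CPM in WT batch 2 and 719.8 in P37Stop of the same experiment, against a mean of 204.2 for WT batch 1; the S441L mean was 352.6 and the P183L mean 128.7.

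In body wall muscle 9 of 40 rose, 2 fell and 22 were held, with a median of 0.14. The major myosin unc-54 (-0.21), the paramyosin unc-15 (0.08) and the actin act-4 (-0.09) were held. atn-1, the alpha-actinin of dense bodies, rose (1.43), as did tnt-2, a troponin T (0.61). myo-3, the minor body wall myosin, fell (-1.0), with 790.1, 892 and 799 CPM in WT batch 2, against 1567, 1726 and 1671 CPM in WT batch 1. The number of body wall genes called higher was 5 without replicate 1 of WT batch 2 and 3 with upper quartile scaling. The number lower was 4 with DESeq2, and also without replicate 1 or 2 of WT batch 2 and without replicate 1 or 3 of WT batch 1.

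In the intestine 11 of 32 rose, 6 fell and 11 were held, with a median of 0.17. cpr-5, a cathepsin B-like protease (chromosome V, 1132598 to 1134036), averaged 94.0 ± 22.2 CPM over the WT batch 2 plates, against 3.22 ± 0.363 CPM over those of WT batch 1 (SD, n = 3 each; log2 fold change 4.87 ± 0.17), and no WT batch 1 library came near the WT batch 2 range. cpr-4, of the same kind, had 118.7, 83.8 and 82.9 CPM in WT batch 2, against 19.5, 23.2 and 22.7 CPM in WT batch 1 (2.12). The lysozyme genes lys-8 (2.15) and lys-4 (1.80), the peptide transporter pept-1 (1.67) and the gut esterase ges-1 (1.1) rose. asp-1, an aspartic protease and an abundant transcript, had 5209, 4137 and 4062 CPM in WT batch 2, against 7281, 8503 and 7906 CPM in WT batch 1 and fell (-0.82). The gut lineage GATA factor elt-2 was held (0.18), with 30.6, 29.6 and 28.2 CPM in WT batch 2, against 26.6, 25.8 and 26.1 CPM in WT batch 1, and so were the intermediate filament ifc-2 (0.31) and its organizer ifo-1 (-0.01).

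Every gene of the general neuron list that changed rose. In this list 21 of 43 rose, none fell and 15 were held, with a median of 0.47. cat-2, the tyrosine hydroxylase of dopamine neurons, had 3.99, 4.0 and 5.81 CPM in WT batch 2, against 0.445, 0.806 and 0.690 CPM in WT batch 1 (log2 fold change 2.83 ± 0.29). tph-1, the tryptophan hydroxylase of serotonin neurons, had 2.75, 2.18 and 3.35 CPM in WT batch 2, against 0.712, 0.361 and 0.366 CPM in WT batch 1 (log2 fold change 2.51 ± 0.35). WT batch 2 lay above WT batch 1 in every library for both.

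The vesicular monoamine transporter cat-1 (2.4), the tyrosine decarboxylase tdc-1 (1.76), the tyramine hydroxylase tbh-1 (1.83), the choline transporter cho-1 (1.31) and the synaptic genes rab-3 (1.2) and snb-1 (0.79) rose. egl-3, a proprotein convertase (-0.02), egl-21, a carboxypeptidase (-0.07), and unc-104, the synaptic vesicle kinesin (-0.07), were held. Touch receptor genes gave none higher, 1 lower and 7 held of 10, with 2 lower without replicate 2 of WT batch 2; the tubulins mec-7 (0.26) and mec-12 (-0.01) were held and the channel subunit mec-10 fell (-0.62). unc-119, itself neuronal, was not part of these lists.

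Of the ciliated sensory neuron genes, 15 of 42 rose, none fell and 13 were held. daf-11, a receptor guanylyl cyclase of chemosensation, had 9.65, 8.51 and 8.50 CPM in WT batch 2, against 1.98, 2.22 and 2.03 CPM in WT batch 1 (log2 fold change 2.1 ± 0.16). odr-1 (2.21), another such cyclase, the cyclic nucleotide-gated channel subunits tax-2 (1.73) and tax-4 (1.29), and odr-10 (1.51), the diacetyl receptor, rose. The channel genes osm-9 (-0.13) and ocr-2 (-0.11) and the cilia regulator daf-19 (0.28) were held. With total counts 9 of these genes were higher, and 1 was lower without replicate 2 of WT batch 2. In the guanylyl cyclase family (gcy) 21 of 30 rose, 1 fell and 4 were held, with a median of 1.79, and 21 were higher whichever library was left out. gcy-18 (3.35) and gcy-23 (2.62), cyclases of the AFD thermosensory neurons, and gcy-6 (3.2) were among them, and gcy-29 fell (-0.85).

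Secreted peptide genes changed in both directions. Of FMRFamide-like peptide genes 15 of 30 rose, 8 fell and 5 were held; flp-17 (3.02) and flp-1 (2.2) were among the higher genes, and flp-4 (-1.56) and flp-15 (-0.99) among the lower. Of the genes named nlp, which include 10 of the epidermal antimicrobial list, 26 of 68 rose, 19 fell and 9 were held; nlp-3 rose (2.38), and nlp-12, a peptide of the DVA neuron, fell (-1.57). Among insulin-like peptides 12 of 24 rose, 5 fell and none were held, the 12 becoming 9 without replicate 1 of WT batch 1 and the number lower 3 without replicate 1 or 2 of WT batch 1. daf-28, an insulin-like agonist of the DAF-2 receptor, had 15.4, 10.5 and 13.9 CPM in WT batch 2, against 0.735, 0.584 and 0.819 CPM in WT batch 1 (log2 fold change 4.20 ± 0.21). ins-18, of the same family, fell (-1.37), with 19.8, 24.3 and 22.6 CPM in WT batch 2, against 58.2, 55.5 and 59.1 CPM in WT batch 1. daf-28 was near the floor in WT batch 1 only, with at most 0.819 CPM in a library. The receptor daf-2 (-0.32) and the transcription factor daf-16 (0.13) were held.

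Smaller tissues were described by short lists. Of coelomocyte genes 3 of 4 rose, none fell and 1 was held: unc-122 (1.73), cup-4 (1.68) and let-381 (1.54) rose and fozi-1 was held (-0.02). Excretory system genes gave 2 higher, 3 lower and 4 held of 12; the glutamate transporter glt-3 (1.89) and the aquaporin aqp-8 (1.53) rose and the intracellular chloride channel-like gene exc-4 was held (-0.03). Of 7 glial genes, vap-1 rose (2.31) and daf-6 (-0.72) and ptr-10 (-1.45) fell; none of the 7 was lower without replicate 2 of WT batch 1, and 1 without replicate 1 of that group or replicate 1 or 3 of WT batch 2. Among epidermal regulators 1 of 16 rose, 4 fell and 6 were held. With DESeq2, without replicate 2 of WT batch 2 and without replicate 1 or 2 of WT batch 1 none was higher, and with all 15 libraries in the fit 8 were lower. eff-1, the gene mutated in the study's other libraries, was held at 21.5, 26.1 and 26.1 CPM in WT batch 2, against 25.9, 22.3 and 25 CPM in WT batch 1.

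Genes of primordial germ cells and P granules gave 6 higher, none lower and 6 held of 27. prg-1, the Piwi protein, had 41.4, 28.4 and 32 CPM in WT batch 2, against 5.48, 4.64 and 4.87 CPM in WT batch 1 (log2 fold change 2.76 ± 0.14). pgl-1, a core P granule protein, had 10.4, 3.32 and 4.4 CPM in WT batch 2, against 1.56, 2.0 and 1.66 CPM in WT batch 1 (log2 fold change 1.80 ± 0.37), with replicate 1 of WT batch 2 at more than the other 2 libraries of its group. Without that replicate, 4 genes of this list were lower, against none with it.

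Sheath genes were lower in WT batch 2. Of the genes of the embryonic sheath, the temporary matrix that covers the embryo before its cuticle, none of 10 rose, 9 fell and 1 was held, with a median of -1.51; 9 were lower in every fit run, and none was held without replicate 1 of WT batch 2 or without any 1 library of WT batch 1. noah-1, a zona pellucida domain protein of the sheath (chromosome I, 5874416 to 5878958), had 13.7, 24.7 and 14.2 CPM in WT batch 2, against 52.5, 49 and 53.9 CPM in WT batch 1 (log2 fold change -1.56 ± 0.18; adjusted p = 1.96e-05 by edgeR's quasi-likelihood test). sym-1, a leucine-rich repeat protein, had 4.43, 5.19 and 6.35 CPM in WT batch 2, against 16.6, 17.9 and 16.51 CPM in WT batch 1 (log2 fold change -1.68 ± 0.14). lpr-3, a lipocalin, had 8.13, 9.78 and 5.35 CPM in WT batch 2, against 23.3, 23.3 and 25.6 CPM in WT batch 1 (log2 fold change -1.63 ± 0.17). All WT batch 1 libraries stood above all WT batch 2 libraries in these 3 genes, and the WT batch 2 libraries were the more scattered.

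Among collagens of the body and its furrows 3 of 15 rose, 8 fell and none were held. Summed over the list, however, CPM per library were 1883 to 2362 in WT batch 2 and 1418 to 1798 in WT batch 1. The number of genes that fell thus does not describe the summed level, which was higher in WT batch 2. sqt-3, a collagen of the embryonic and larval cuticle, had 91.6, 78.2 and 65.5 CPM in WT batch 2, against 214, 254 and 209 CPM in WT batch 1 (log2 fold change -1.52 ± 0.11). dpy-17, which acts with it, fell as well (-1.49), and so did the furrow collagens dpy-2 (-1.41), dpy-3 (-1.45), dpy-7 (-0.96) and dpy-10 (-1.23). Against this direction, bli-1, a collagen of adult struts, rose at very low levels (0.985, 0.352 and 0.921 CPM in WT batch 2, against 0.0668, 0.111 and 0.0431 CPM in WT batch 1), and so did the furrow collagen dpy-8 (2.15). The larger family of numbered collagens (col) was mixed, and 42 of 111 (37.8%) rose, 22 fell and 6 were held. Its summed level was higher in WT batch 2, at 25050 to 32260 CPM per library, against 15980 to 21480 in WT batch 1. Among the genes that fell were col-8 (-2.61) and col-153 (-2.47). The extremes of this family, col-143 (-2.96) and col-119 (5.61), had low levels. col-143 had 0.694, 0.813 and 0.384 CPM in WT batch 2, against 5.52, 5.47 and 3.94 CPM in WT batch 1, and col-119 had 0.784, 1.03 and 0.921 CPM in WT batch 2, against 0, 0.0278 and 0.0215 CPM in WT batch 1.

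Of the molting and cuticle enzyme genes 3 of 28 rose, 9 fell and 8 were held; 1 was higher without replicate 3 of WT batch 1, and 5 were held without replicate 3 of WT batch 2 or replicate 1 of WT batch 1. hch-1, the hatching protease, had 8.67, 11.8 and 6.63 CPM in WT batch 2, against 28.6, 31.4 and 27.7 CPM in WT batch 1 (log2 fold change -1.69 ± 0.16). lrp-1, the megalin-like receptor needed for molting and the most abundant gene of the list that changed, had 407, 489 and 455 CPM in WT batch 2, against 783, 826 and 809.9 CPM in WT batch 1 (log2 fold change -0.84 ± 0.08). Both separated the groups. mlt-9 (-1.81) and acn-1 (-1.41) fell too, while the dual oxidase bli-3 (0.00) and the convertase bli-4 (0.05) were held. nhr-23, a regulator of molting, had 7.19, 9.43 and 7.81 CPM in WT batch 2, against 9.95, 10.8 and 12.9 CPM in WT batch 1 and missed the fold limit (-0.46). In the hedgehog-related family 6 of 42 rose, 14 fell and 4 were held, and of the patched-related genes 2 of 27 rose, 10 fell and 10 were held, the number held being 6 without replicate 3 of WT batch 1.

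Heterochronic genes, which time larval stages, gave none higher, 3 lower and 5 held of 12, with 3 held without replicate 2 or 3 of WT batch 2 and with total counts. lin-14 and lin-28, early-stage factors, were not called: lin-14 was held (-0.28) and lin-28 had a log2 fold change of -0.36. hbl-1, a hunchback-like repressor, had 50.1, 72.7 and 53.7 CPM in WT batch 2, against 114, 96.9 and 119.1 CPM in WT batch 1 (log2 fold change -0.90 ± 0.12). lin-42, the Period-related gene, had 2.96, 1.17 and 1.56 CPM in WT batch 2, against 3.58, 3.81 and 4.76 CPM in WT batch 1 (log2 fold change -1.09 ± 0.31). hbl-1 and lin-42 fell, as did lin-29 (-0.90). Of 6 Hox genes, ceh-13, the anterior one, rose (0.80), lin-39 (-0.01) and mab-5 (-0.03) were held, and the posterior genes egl-5 (-0.58) and php-3 (-0.68) fell.

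Maternal transcripts varied among the plates of WT batch 2. Of 31 maternal and oocyte genes 1 rose, none fell and 6 were held. pos-1, a maternal RNA-binding protein, had 16.7, 5.10 and 3.07 CPM in WT batch 2, against 11.2, 9.50 and 11.4 CPM in WT batch 1. spn-4, another maternal RNA-binding protein, had 8.0, 2.33 and 2.48 CPM in WT batch 2, against 5.92, 5.53 and 5.75 CPM in WT batch 1. In both genes replicate 1 of WT batch 2 was the highest library and replicates 2 and 3 were below all of WT batch 1. Without replicate 1 of WT batch 2, 11 of the 31 were lower. DNA replication and mitosis genes gave 7 higher, 3 lower and 27 held of 57, with 4 higher and 5 lower without that same replicate, and of the sex determination and dosage compensation genes none of 14 rose, 1 fell and 11 were held; none was lower without replicate 1 of WT batch 2, and 1 was higher without its replicate 3.

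**Figure D3:**
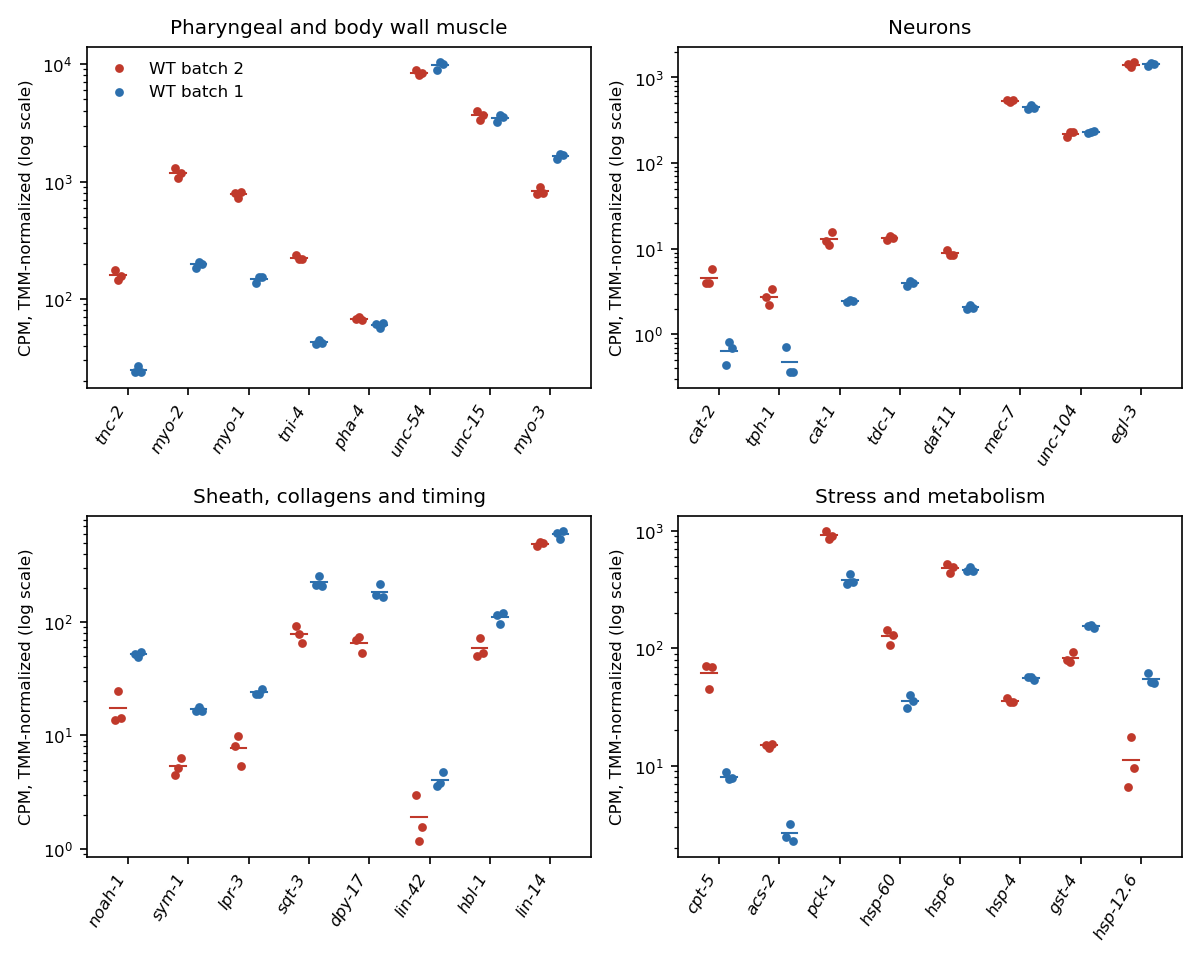
Transcript level in CPM after TMM normalization (vertical axes, log scale) of genes named in the text (horizontal axes), in panels for muscle, neurons, sheath with collagens and timing genes, and stress with metabolism; each point is 1 of 3 libraries and each line a mean, with WT batch 2 in red and WT batch 1 in blue. WT batch 2 lies above WT batch 1 in tnc-2, myo-2, myo-1 and tni-4 and below it in noah-1, sym-1 and lpr-3, while pha-4, mec-7, unc-104, egl-3 and hsp-6 have levels close together.

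Heat shock genes, some of which are near copies of each other, gave none higher, 4 lower and none held of 8; 1 was higher without replicate 2 of WT batch 2. hsp-16.2, a small heat shock protein, had 4.19, 4.26 and 4.84 CPM in WT batch 2, against 9.77, 8.42 and 9.03 CPM in WT batch 1 (log2 fold change -1.04 ± 0.15). hsp-70, an inducible HSP70, had 2.04, 0.659 and 0 CPM in WT batch 2, against 4.43, 5.22 and 4.81 CPM in WT batch 1. F44E5.4 and F44E5.5 are near-identical inducible HSP70 genes; F44E5.4 fell and F44E5.5 was not called, and their summed counts gave -0.36 (adjusted p = 0.0504 by edgeR's quasi-likelihood test), which was not called. The other genes of the list that fell were hsp-16.2, hsp-16.41 (-1.27) and hsp-70, and the summed copies of hsp-16.1 (-0.43) and of hsp-16.48 (0.07) were not called. Constitutive cytosolic chaperones were held in 15 of 15 genes, and of the endoplasmic reticulum genes 1 of 19 rose, 3 fell and 14 were held; hsp-4, a BiP chaperone, fell (-0.64).

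Of the oxidative stress genes 4 of 33 rose, 13 fell and 10 were held; 2 were higher with total counts, and 2 higher and 6 held with all 15 libraries in the fit. prdx-3, a mitochondrial peroxiredoxin, had 127, 119.9 and 124 CPM in WT batch 2, against 62.6, 66.0 and 60.8 CPM in WT batch 1 (log2 fold change 0.97 ± 0.06). The mitochondrial superoxide dismutases sod-2 (0.57) and sod-3 (0.68) and the cytosolic sod-1 (0.57) rose, while the cytosolic peroxiredoxin prdx-2 (-0.53) and the extracellular sod-4 (-0.62) fell. gst-4, a glutathione S-transferase used as a reporter of the SKN-1 response, had 79.5, 77.0 and 93.3 CPM in WT batch 2, against 156, 158 and 149 CPM in WT batch 1 (log2 fold change -0.89 ± 0.08), and skn-1 itself was held (-0.26). In the whole glutathione S-transferase family 10 of 42 rose, 18 fell and 3 were held; gst-35, with 88.7, 106 and 106 CPM in WT batch 2, against 550.1, 546 and 528 CPM in WT batch 1, fell most among its abundant genes (-2.43).

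Of the metal handling genes 2 of 18 rose, 5 fell and 6 were held. cdr-4, a cadmium-responsive gene, had 22.2, 23.3 and 26 CPM in WT batch 2, against 87.7, 80 and 85.1 CPM in WT batch 1 (log2 fold change -1.82 ± 0.08). The metallothioneins mtl-1 (-0.68) and mtl-2 (-1.57) and the ferritin ftn-1 (-0.55) fell. The symbol numr-1 belongs to 2 gene IDs, each at 0 in all libraries of one batch; their sum was held (-0.01). 1 of these IDs is counted among the genes that rose and the other among those that fell, which leaves cdr-1 (1.54) as the gene of this list that rose and cdr-4, mtl-1, mtl-2 and ftn-1 as those that fell. In the hypoxia and hydrogen sulfide list 6 of 19 rose, 2 fell and 6 were held, and the 6 became 3 without replicate 3 of WT batch 2 or with all 15 libraries in the fit. cah-4, a carbonic anhydrase, rose (1.68), rhy-1, a regulator of HIF-1, fell (-0.91) and hif-1 was held (0.30). In the osmotic list 4 of 12 rose, 1 fell and 3 were held, with 2 lower and 1 held without replicate 1 of WT batch 2 or replicate 2 of WT batch 1, 2 lower without replicate 1 of WT batch 1 and 3 lower with total counts; the myo-inositol transporter genes hmit-1.1 (1.31) and hmit-1.2 (2.17) and the glycerol enzyme gene gpdh-2 (0.57) rose.

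Targets of DAF-16, the FOXO factor of L1 survival, split: 4 of 23 rose, 5 fell and 11 were held. old-1, a receptor tyrosine kinase, rose (3.40). hsp-12.6, a small heat shock protein, had 6.58, 17.6 and 9.60 CPM in WT batch 2, against 61.4, 51.4 and 50.9 CPM in WT batch 1 (log2 fold change -2.27 ± 0.26). hsp-12.3 fell too (-2.08), and the catalase gene ctl-2 was held (-0.16).

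Innate immune genes were listed by tissue. Of intestinal effectors 14 of 28 rose, 5 fell and 4 were held; irg-3 (2.4) and clec-85 (2.81) rose and spp-1, a saposin-like effector, fell (-1.5). Of the epidermal antimicrobial peptides 2 of 18 rose, 8 fell and 2 were held. nlp-29, the peptide often used as an epidermal immune reporter, was held at 63.4, 88.6 and 72.8 CPM in WT batch 2, against 67, 97.1 and 57 CPM in WT batch 1. None of the list, nlp-29 included, was held without replicate 2 of WT batch 2, and 1 was held without replicate 3 of WT batch 1; 1 was higher without replicate 2 of WT batch 2 or replicate 1 of WT batch 1. Replicate 2 of WT batch 1 was the highest library of its group in nlp-27, nlp-28, nlp-29 and nlp-33. In the intracellular pathogen response 2 of 24 rose, 8 fell and 4 were held, and in its pals family 2 of 30 rose, 15 fell and 1 was held, 14 to 16 being lower and none to 2 held when 1 library was left out. pals-5, the usual reporter of that response, had 0.202, 0.417 and 0.0512 CPM in WT batch 2, against 1.71, 1.64 and 1.44 CPM in WT batch 1 (log2 fold change -2.80 ± 0.55). pals-22, its negative regulator, averaged 13 ± 0.894 CPM over the WT batch 2 plates, against 15.4 ± 2.25 CPM over those of WT batch 1 (SD, n = 3 each), a log2 fold change of -0.23.

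**Figure D4:**
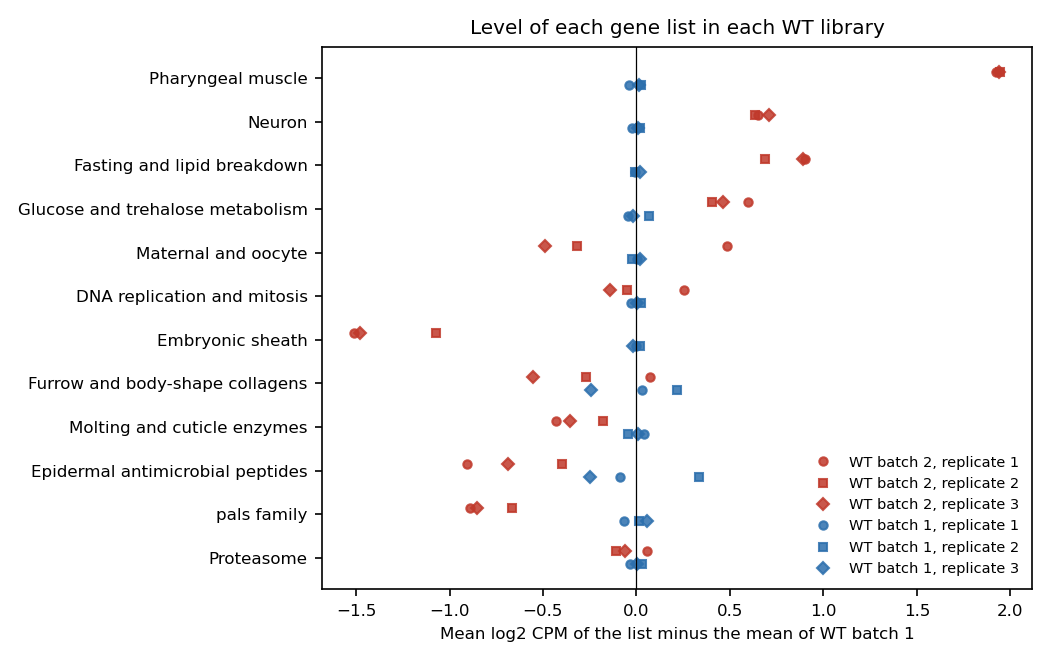
Mean log2 CPM of 12 gene lists (rows) in each of the 6 libraries, as the difference from the mean of WT batch 1 (horizontal axis, log2 units), with WT batch 2 in red and WT batch 1 in blue and a marker shape for each replicate. The pharyngeal muscle and neuron lists are high in all 3 WT batch 2 libraries, the sheath list is low in all 3, and the maternal list lies above 0 in replicate 1 of WT batch 2 and below 0 in its replicates 2 and 3.

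Large families were split further. C-type lectins gave 53 higher, 17 lower and 5 held of 109, with a median of 0.77 and 8 held without replicate 1 of WT batch 2, and UDP-glucuronosyltransferases gave 32 higher, 6 lower and 6 held of 63. clec-63 rose (2.1), ugt-11 rose (4.46) and ugt-15 fell (-2.92). F-box B genes moved the other way at low levels, and 1 of 73 rose, 24 fell and none were held. No gene of this family reached a mean of 10 CPM in both batches. The 73 together had 36.8 to 45.9 CPM per library in WT batch 2 and 81.4 to 92.7 in WT batch 1. The number lower ran from 11 without replicate 1 of WT batch 1 to 33 without replicate 1 of WT batch 2. It was 15 without replicate 2 and 13 without replicate 3 of WT batch 1. Chemoreceptor genes, mostly near the limit of detection, gave 67 higher, 38 lower and 5 held of 297, with 42 higher without replicate 2 and 22 lower without replicate 1 of WT batch 1. Of the nspc genes, a family of close copies listed after its values were seen, 12 of 12 were higher. Nuclear hormone receptors gave 37 higher, 26 lower and 80 held of 210, and cytochrome P450 genes gave 16 higher, 15 lower and 14 held of 67, with 9 held without replicate 3 of WT batch 1.

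Lists of basic cell machinery differed in how many of their genes were held. In the proteasome none of 33 rose, none fell and 31 were held, and in the coatomer and COPII coats 1 of 27 rose, 1 fell and 23 were held. In translation factors 6 of 31 rose, none fell and 14 were held, in aminoacyl-tRNA synthetases 4 of 31 rose, 3 fell and 15 were held, and in the spliceosomal snr, rsp and lsm genes 4 of 22 rose, 2 fell and 10 were held, with 6 held without replicate 3 of WT batch 1. No synthetase gene was higher without replicate 3 of WT batch 2 and 2 were without replicate 1 or 3 of WT batch 1. RNA polymerase II and III subunits gave 1 higher, 1 lower and 12 held of 16. All 8 chaperonin (cct) genes were held, 5 of them without replicate 3 of WT batch 1. When gene-name classes with at least 10 genes tested were ranked by the share held, the first 5 were npp (nuclear pore, 24 of 26), sec (17 of 19), vps (vacuolar sorting, 27 of 31), prp (splicing) and rpn (proteasome), the last pair with 11 of 13 each. Per length, the most abundant held transcript was eef-1A.1, a translation elongation factor, with a mean of 11230.0 TPM (counts per exon length, scaled to the same total) in WT batch 2 and 10280.0 TPM in WT batch 1, followed by ant-1.1, a mitochondrial ADP/ATP carrier, with 9453 and 9883 TPM in the same groups.

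Among cytosolic ribosomal protein genes 23 of 81 rose, 7 fell and 29 were held, with a median of 0.39 and 14 to 23 higher under the other settings. rpl-37, whose estimated counts were not whole, had the largest change (-4.34), with 3.13, 10.1 and 6.71 CPM in WT batch 2, against 148, 123 and 134 CPM in WT batch 1. rps-13 rose (0.82), and the short rpl-39 (-1.62) and rpl-29 (-0.93) fell. Protein-coding genes were split into 5 equal classes by exon length. Of the longest class 8.87% were lower and 55.8% held, against 22.1% lower and 17.4% held in the shortest. The part of transcript length in the ribosomal protein result was not tested. Of 18 genes in use as RT-qPCR references, 14 were held, gpd-1 (0.14) was neither, and 3 rose: tbg-1, the gamma-tubulin (1.1), act-3, an actin (0.86), and mdh-1, a malate dehydrogenase (0.52).

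**Figure D5:**
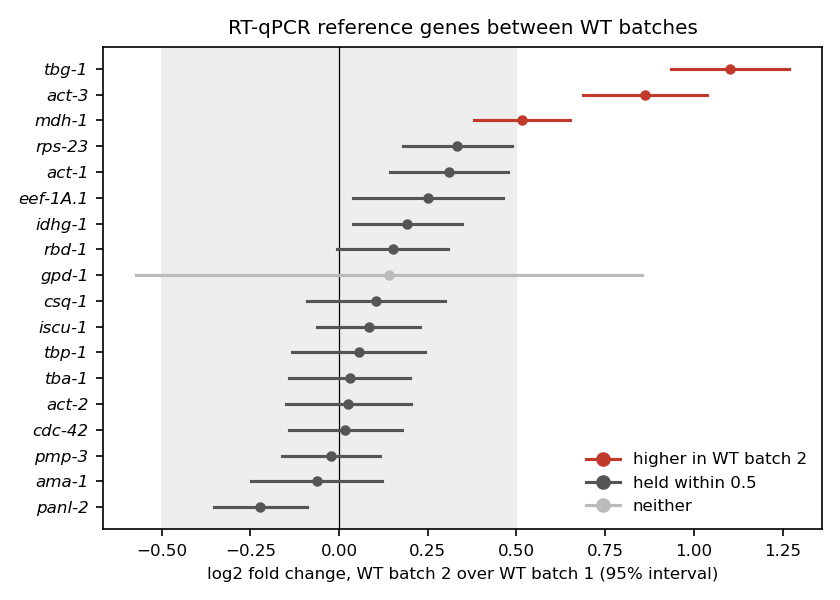
Log2 fold change of WT batch 2 over WT batch 1, with its 95% interval (bars), for 18 genes used as RT-qPCR references; the shaded range runs from -0.5 to 0.5. The intervals of 14 genes lie inside the range, and tbg-1, at 1.1, is the farthest from 0.

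The largest single changes were often among genes with close copies. Of the genes at 0 in all libraries of one batch and at 1 CPM or more in the other, 24 in all, 18 share their symbol with another gene ID, and 2 have a symbol of their own and whole counts throughout. F31C3.15, a noncoding RNA gene, had 3517, 4909 and 7049 counts in WT batch 2 and 0 in every WT batch 1 library, with estimated counts that were not whole. F14E5.8 (chromosome II, 8420098 to 8422186) had 9.27, 12.55 and 15.3 CPM in WT batch 2, against 0.0223, 0.0278 and 0.0215 CPM in WT batch 1. sosi-1 (8.37), the glucuronosyltransferase ugt-35 (6.29) and the lipase-related lips-15 (5.35) were also among the 10 largest increases. T26H5.9 (chromosome V, 15444916 to 15445420) had 5.76, 6.90 and 5.48 CPM in WT batch 2, against 50.2, 48.5 and 46.2 CPM in WT batch 1 and was among the 10 largest decreases (-3.0), as were Y47G6A.36 (-5.76) and K02D10.8 (-2.86). pud-1.2 was called lower by itself (-3.70), and the summed pud-1 copies had a log2 fold change of -0.55. Pseudogenes gave 48 higher, 121 lower and 19 held of 465, against 2799, 2029 and 4693 of 14774 protein-coding genes.

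Within a batch, plates of WT batch 2 scattered more. The median SD of log2 CPM was 0.104 over the 8175 genes at 10 CPM or more in WT batch 2 and 0.0706 over 8059 such genes in WT batch 1. clec-87, a C-type lectin, had 45, 18.3 and 8.42 CPM in WT batch 2, against 21.6, 18.3 and 20.6 CPM in WT batch 1. far-5, a fatty acid and retinol binding protein, had 11.5, 10.8 and 10.7 CPM in WT batch 2, against 18.2, 7.36 and 16.14 CPM in WT batch 1. In clec-87 the spread among the 3 WT batch 2 plates was wide, with replicate 1 the highest, and in far-5 replicate 2 of WT batch 1 stood below its group.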

How the data were processed

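PolyA RNA of arrested L1 larvae was sequenced in 15 libraries, of which 6 are WT. The authors trimmed reads with fastp, aligned with STAR, removed duplicates with picard, name both Salmon (ce11 genome) and htseq for quantification, and deposited 1 table of estimated counts per gene; which of these tools made the table is not given in the sources used here. Of the deposited WT values, 3.56% were not whole, and all expected counts were rounded. The 1 table row with no gene ID was left out. Of 46911 gene IDs, 46857 were matched to Ensembl release 115 (WBcel235), which gave symbols, positions and exon lengths.

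Genes were kept by filterByExpr (minimum count 10), scaled by TMM and tested with edgeR 4.0.16 in R 4.3.3 (quasi-likelihood test, Benjamini-Hochberg over 15408 genes). CPM are counts scaled to the TMM library size, TPM are the same counts per exon length, log2 fold changes are WT batch 2 over WT batch 1, and errors beside them are standard errors. Alternatives were DESeq2 1.42.0, limma-voom 3.58.1, other scalings and filters, all 15 libraries in 1 fit, a replicate block and each library left out; summed copies and whole values only were added after seeing the data.

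Named genes were the 10 largest changes in each direction without overlap at 10 CPM or more, genes at 0 in 1 batch, and, in each list, the largest changes, the most abundant members and up to 6 of textbook role. The members and the lists were chosen with earlier results of these data known.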

Additional observations from a re-analysis of the deposited data

How the results depend on the processing

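With a log2 fold change limit of 1, 1621 genes were higher and 1004 lower, and within a range of 0.25 on the log2 scale 1102 genes were held. When 1 library was left out, 2570 to 2827 genes were higher, 1971 to 2506 lower and 3920 to 4714 held. Of the genes called, 56.56% were higher as reported, against 47.28% with total counts (2461 higher, 2744 lower) and 45.54% with all 15 libraries in the fit (2630 higher, 3145 lower). The median of all genes moved to -0.09, -0.06 and -0.10 with total counts, upper quartile scaling and all 15 libraries. DESeq2 shared 2800 of its 2821 higher genes and 2186 of its 2332 lower genes with edgeR. Summing gene copies gave 2880 higher and 2213 lower, and whole values only gave 2312 and 1894 of 12353 genes.

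None of the 3158 listed or named genes that were tested, 1317 of them called, reversed under the alternatives compared gene by gene. The most calls were lost without replicate 1 of WT batch 1 (178). Summed copies and whole values only were not part of this comparison. With copies summed, the 2 numr-1 IDs, called in opposite directions, became 1 held sum (-0.01). Same-numbered libraries of the 2 batches did not deviate together (correlations of -0.018, -0.065 and -0.014), so the numbers do not pair them. A replicate block gave 2723 higher, 2142 lower and 4438 held, and 67 listed or named genes lost their call. With 3 plates per batch and 1 experiment per batch, a difference between batches cannot be told apart from one between experiments, and genes near the count minimum are the least resolved.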
